A study of Homo sapiens with 9 samples.

Results

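The genes described here encode the protein subunits of the mitochondrial ribosome that carry the symbols MRPL (large subunit) or MRPS (small subunit) followed by a number, with an end letter A, B or C allowed and names with a hyphen left out. The rule uses the symbol and no measured value. Of 16630 genes in the deposited expression table, 75 met the rule, 47 of them MRPL genes and 28 MRPS genes, and all 75 were measured in every library and passed the filter on low values, a mean of at least 0.5 FPKM (fragments corrected for transcript length and library size). Pseudogene symbols such as MRPL42P5 and MRPL45P2 and the antisense gene MRPL23-AS1 fell outside the rule. The names are kept as they stand, although later structures place MRPS18A and MRPS30 in the large subunit and MRPS36 has since been assigned to the oxoglutarate dehydrogenase complex.

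The libraries came from H1650, an established human line of non-small cell lung cancer, harvested on day 3 of an RNA interference experiment with siRNA at 20 nM. The siMENA11a cells were given 3 mixed siRNAs directed at exon 11a of ENAH, the gene of the actin regulator hMENA; that exon marks its epithelial isoform. The siMENA cells were given a commercial pool (siGENOME SMARTpool) against hMENA(t), and the control cells a non-targeting pool of another product line (ON-TARGETplus). Every group had 3 libraries, which the submitters call biological replicates; nothing further says whether they were separate cultures, so that the tests measure the spread between these libraries. All 9 libraries share 1 cell line, 1 time and the same transfection reagent, and 1 siRNA preparation stands for each target.

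Mitochondria hold their own ribosomes, which translate only the few proteins encoded by mitochondrial DNA, all of them subunits of the respiratory chain and of ATP synthase. The ribosomal RNA comes from mitochondrial DNA, but every protein subunit is made from a nuclear gene and imported, so that each ribosome joins products of the nuclear and the mitochondrial genome. Many of the proteins have a counterpart in bacterial ribosomes, whereas others exist only in mitochondria. Inherited defects of several of these genes cause combined oxidative phosphorylation deficiency.

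The targeted gene, ENAH, had 9.98, 11.02 and 10.3 FPKM in siMENA11a libraries, 4.43, 5.79 and 5.57 FPKM in siMENA libraries and 26.1, 30.04 and 26.1 FPKM in control libraries. Its libraries did not overlap between any of the groups, and the siMENA11a libraries held more of it than the siMENA libraries. The FPKM values of a library summed to 558754 to 592930, of which RPPH1 and RMRP together took 10.7% to 14.6%, and no read counts or depths accompany them. Of the 7 epithelial marker genes listed (EPCAM, CDH1, KRT8, KRT18, KRT19, KRT7 and MUC1), all 7 were in the table, and their summed level was 3952 to 4451 FPKM in siMENA11a libraries, 4699 to 4899 in siMENA libraries and 4828 to 5147 in control libraries. The lung markers SFTPB and SFTPC summed to at most 0.353 FPKM and NKX2-1 and NAPSA were not in the table, so that lung identity was not seen in these markers. Fibroblast markers summed to at most 3.79 FPKM, leukocyte markers to at most 20.2 FPKM and endothelial markers to at most 0.491 FPKM; the defining leukocyte genes PTPRC and CD3E were not in the table. Of the epithelial markers, 3 (CDH1, KRT8 and KRT18) were called lower in siMENA11a than in control libraries, as they were than in siMENA libraries. KRT7 went the other way, being called lower in siMENA than in control libraries (log2 fold change -0.41) and higher in siMENA11a than in siMENA libraries (0.48). The part of these markers in the members' results was not tested.

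The mitochondrial ribosomal protein genes were expressed at a moderate to high level that varied far more between genes than between groups. Mean FPKM over the 9 libraries ran from 6.39 for MRPS31 to 194 for MRPS24, a 30.4-fold range, with a median of 34.1 over the 75 genes against 10.8 over all 13273 genes tested, and 81.0% of the tested genes lay below the members' median. Of the 75 genes, 65 lay between 10 and 100 FPKM. The 5 highest were MRPS24, MRPL51, MRPS21, MRPL33 and MRPL53, at 194, 183, 135, 133 and 115 FPKM, and the 5 lowest were MRPS31, MRPL22, MRPS25, MRPS14 and MRPL52, at 6.39, 7.96, 9.25, 11.1 and 11.3 FPKM. The median was 34.3 FPKM for the MRPL genes and 33.7 FPKM for the MRPS genes. In the table as deposited, 112 of the members' 675 values had lost their decimal point and were divided by 1000; MRPS21, MRPL51 and MRPL33 had no decimal value at all to compare with, so their levels rest on that repair.

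**Figure D1:**
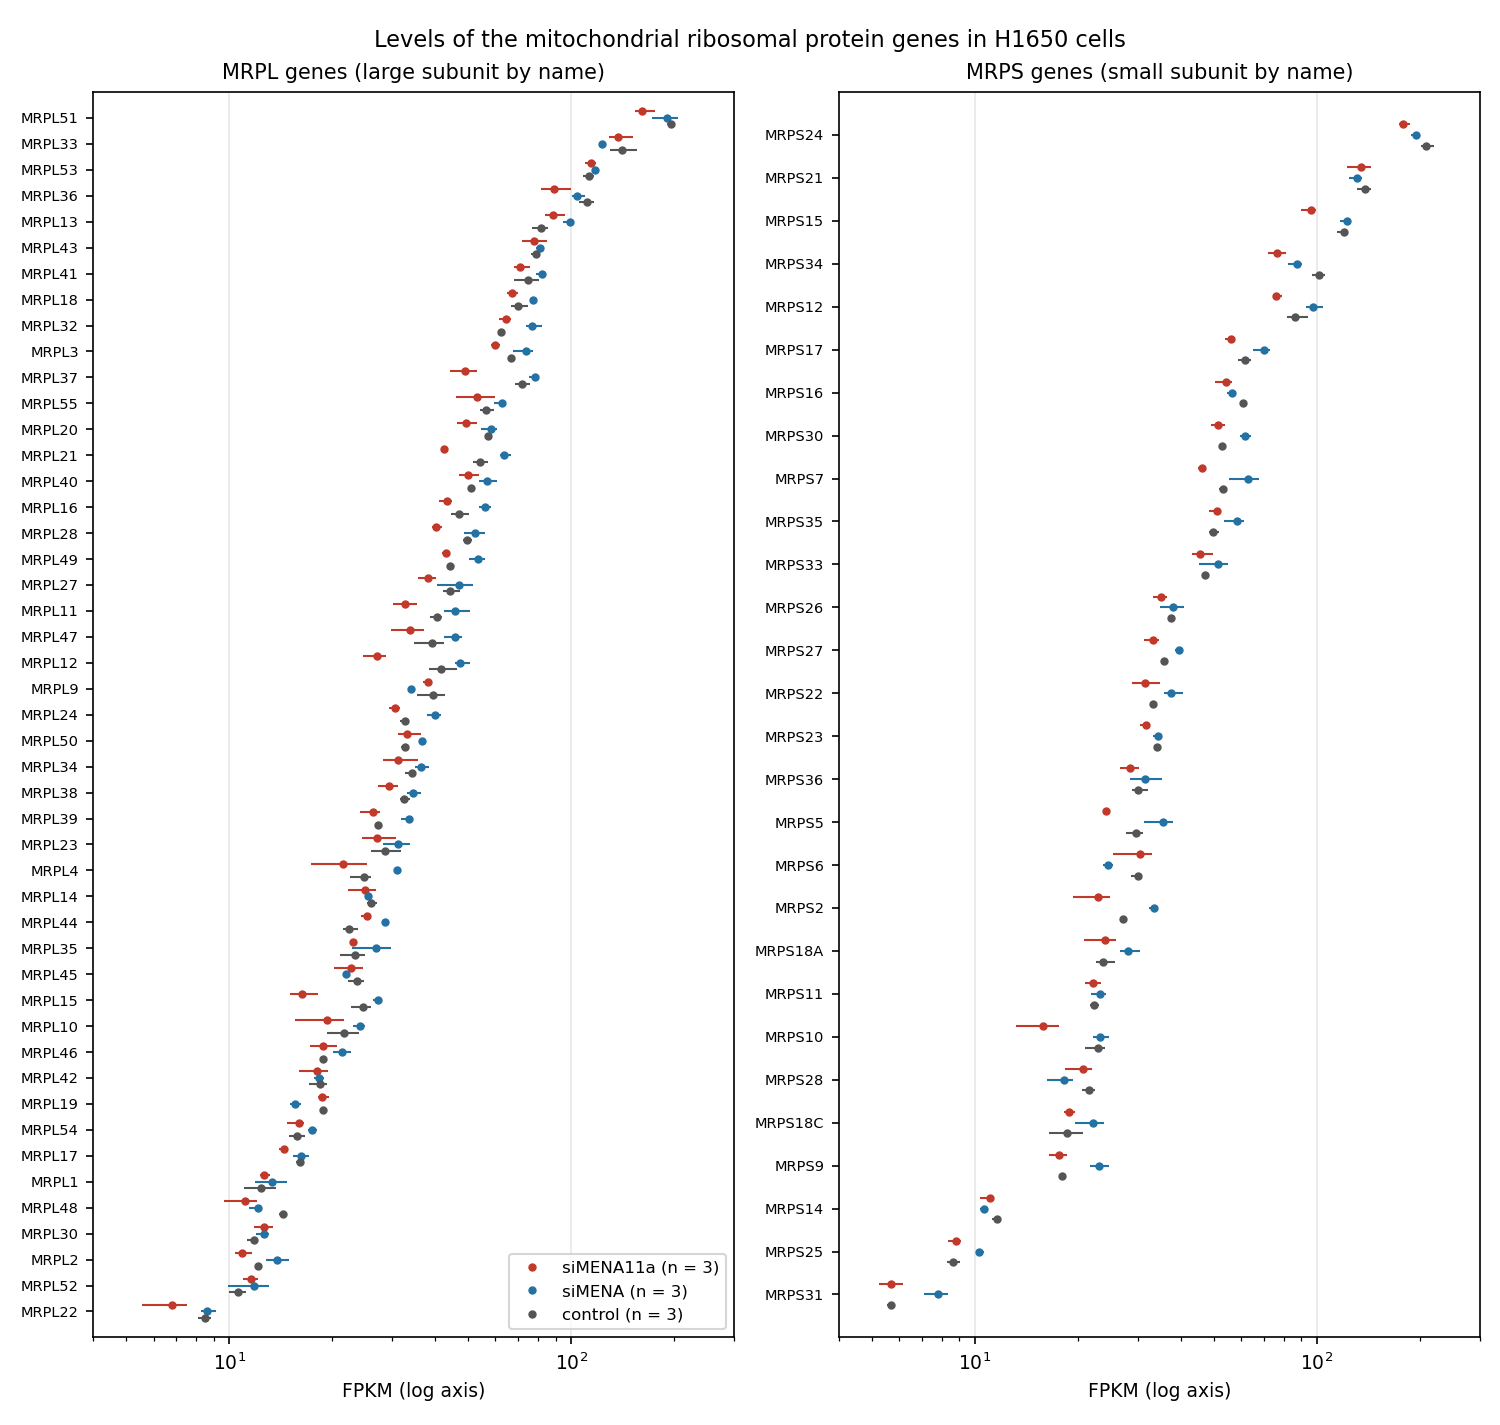
Level of each of the 75 genes in FPKM (log axis), MRPL genes at left and MRPS genes at right, ordered by mean level. Points are group means and bars run from the lowest to the highest of the 3 libraries of a group; levels span 6.39 FPKM (MRPS31) to 194 FPKM (MRPS24), and for most genes the siMENA11a points lie left of the siMENA points.

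At their median, the 75 genes were lower after siMENA11a and higher after siMENA than in control, by small amounts. Relative to the control mean, the median member differed by -0.06, -0.15 and -0.06 on the log2(FPKM + 1) scale in the 3 siMENA11a libraries, by 0.18, 0.11 and 0.07 in the 3 siMENA libraries, and by -0.00, 0.02 and -0.01 in the 3 control libraries. By this median, the 3 siMENA11a libraries all lay below the 3 control libraries and the 3 siMENA libraries all above them. The median over all genes tested was -0.01 in each siMENA11a library, 0.03, 0.04 and 0.04 in siMENA and -0.01, 0.01 and -0.00 in control libraries. Members above the control mean numbered 18, 10 and 30 in siMENA11a, 60, 53 and 48 in siMENA and 37, 46 and 33 in control libraries. As a share of all FPKM, the 75 genes took 0.544% to 0.582% in siMENA11a, 0.6218% to 0.650% in siMENA and 0.614% to 0.622% in control libraries. At 0.6218%, siMENA replicate 3 lay just below control replicate 3 at 0.622%, so siMENA and control overlapped on this measure. In bulk RNA, fewer cells with high expression and less RNA per cell cannot be told apart. The residual SD of a member within its group was 0.08 on the log2 scale at the median (0.04 to 0.17), against 0.10 over all genes tested.

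**Figure D2:**
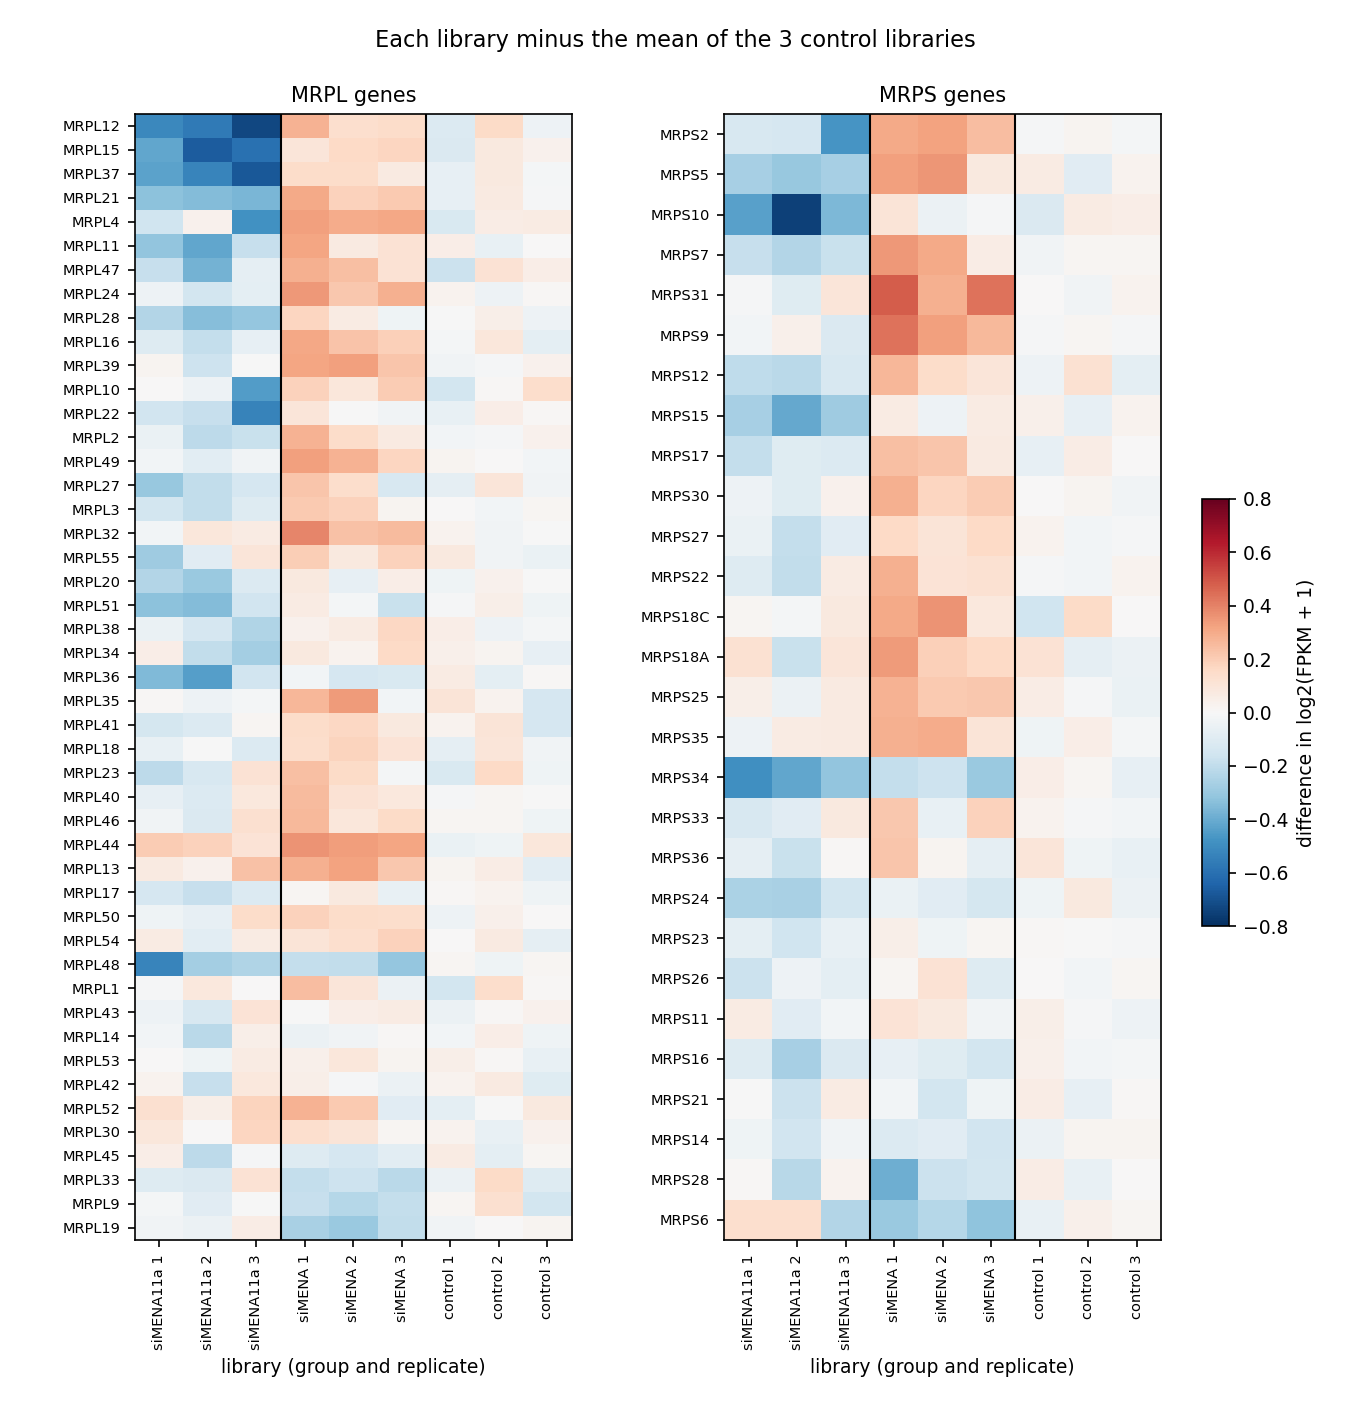
Difference of each library from the mean of the 3 control libraries on the log2(FPKM + 1) scale, for MRPL genes (left) and MRPS genes (right), ordered by the siMENA11a minus siMENA difference; columns are the siMENA11a, siMENA and control libraries. Blue (lower) gathers in the siMENA11a columns of the upper genes such as MRPL12, MRPL15, MRPL37 and MRPS10, and red (higher) in the siMENA columns.

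The promoters of a few of the genes that differed most are shown because the members moved partly together. RefSeq (GRCh38.p14) gave a promoter, taken as 250 bases before to 50 after the start, for 66 of the 75 genes. The letters CCGGAAG, bound by GABP and other ETS factors, stood on either strand in 28 of the 66 (42.4%), against 10.7% of 27305 promoters and 19.3% of the 9219 promoters of tested genes. The letters AAGATGGC, bound by YY1, stood in 19 (28.8%), against 3.03% and 5.52%. The palindromic NRF1 motif stood in 7 (10.6%), against 6.28% and 11.7%, and the E-box CACGTG in 6 (9.09%), against 7.43% and 10.1%. A promoter may hold more than 1 of these motifs; 39 of the 66 (59.1%) held CCGGAAG or AAGATGGC. In the sequences below, written 5′ to 3′ on the strand of the gene, capitals mark the matches to CCGGAAG, AAGATGGC or the NRF1 motif on either strand. The genes printed are, among members with a promoter in the RefSeq table, the 3 with the largest called decreases with siMENA11a against control and the 3 with the largest called increases with siMENA against control. The decreases are those of MRPL12 (chr17:81703117-81703416, plus strand), MRPL37 (chr1:54199917-54200216, plus strand) and MRPS10 (chr6:42217812-42218111, minus strand). The increases are those of MRPS31 (chr13:40771141-40771440, minus strand), MRPS9 (chr2:105037819-105038118, plus strand) and MRPL44 (chr2:223957213-223957512, plus strand).
MRPL12: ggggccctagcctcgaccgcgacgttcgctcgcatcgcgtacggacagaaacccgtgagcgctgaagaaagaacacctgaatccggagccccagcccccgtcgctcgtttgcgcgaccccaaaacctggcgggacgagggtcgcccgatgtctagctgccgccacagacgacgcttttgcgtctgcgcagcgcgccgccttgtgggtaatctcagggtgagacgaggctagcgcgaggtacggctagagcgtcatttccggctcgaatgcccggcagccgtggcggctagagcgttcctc
MRPL37: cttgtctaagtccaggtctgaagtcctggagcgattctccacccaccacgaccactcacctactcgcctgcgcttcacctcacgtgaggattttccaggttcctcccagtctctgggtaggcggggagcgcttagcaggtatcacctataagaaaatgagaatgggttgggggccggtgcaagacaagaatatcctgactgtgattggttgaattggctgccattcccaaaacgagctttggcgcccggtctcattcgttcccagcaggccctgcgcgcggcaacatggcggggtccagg
MRPS10: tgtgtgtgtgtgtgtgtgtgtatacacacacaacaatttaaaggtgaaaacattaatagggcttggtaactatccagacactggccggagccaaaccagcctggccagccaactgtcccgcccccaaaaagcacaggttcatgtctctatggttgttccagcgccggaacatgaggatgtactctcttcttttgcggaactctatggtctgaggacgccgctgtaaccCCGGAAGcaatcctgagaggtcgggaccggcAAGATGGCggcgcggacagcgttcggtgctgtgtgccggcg
MRPS31: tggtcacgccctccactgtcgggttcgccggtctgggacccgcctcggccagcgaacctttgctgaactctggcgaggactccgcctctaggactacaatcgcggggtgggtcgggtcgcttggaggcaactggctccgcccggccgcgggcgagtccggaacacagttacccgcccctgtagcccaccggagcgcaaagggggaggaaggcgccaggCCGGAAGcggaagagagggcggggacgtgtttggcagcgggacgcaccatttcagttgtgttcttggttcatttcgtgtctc
MRPS9: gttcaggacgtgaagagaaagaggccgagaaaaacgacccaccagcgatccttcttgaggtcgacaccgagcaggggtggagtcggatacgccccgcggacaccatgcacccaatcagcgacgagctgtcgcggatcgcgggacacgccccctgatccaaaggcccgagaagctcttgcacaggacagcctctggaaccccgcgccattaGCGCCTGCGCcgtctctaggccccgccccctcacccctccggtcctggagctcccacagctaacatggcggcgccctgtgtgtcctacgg
MRPL44: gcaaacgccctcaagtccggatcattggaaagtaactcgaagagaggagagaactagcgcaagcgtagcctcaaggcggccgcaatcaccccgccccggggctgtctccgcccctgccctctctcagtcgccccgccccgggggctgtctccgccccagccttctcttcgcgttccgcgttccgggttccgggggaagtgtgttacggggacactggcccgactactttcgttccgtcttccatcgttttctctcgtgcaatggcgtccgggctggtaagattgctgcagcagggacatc
MRPS10 carries 1 match each to CCGGAAG and AAGATGGC, MRPS31 carries 1 match to CCGGAAG and MRPS9 carries 1 to the NRF1 motif, while MRPL12, MRPL37 and MRPL44 carry none of these. Among genes with a promoter, CCGGAAG stood in 6 of the 13 called lower with siMENA11a against control and in 22 of the 53 not called. It stood in 2 of the 14 called higher with siMENA against control and in 25 of the 50 not called, counts that were not tested. A match is only a run of letters in this window.

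Comparing siMENA11a with control asks how these genes respond to siRNAs directed at exon 11a. With siMENA11a, 15 of the 75 genes (20%) were called lower than control and none higher, by limma with Benjamini-Hochberg adjustment over all 13273 genes and adjusted p under 0.05. Over all genes tested, 11.3% were called lower and 8.16% higher. At an unadjusted p under 0.05, 25 members were lower and 1, MRPL44, was higher. The median log2 fold change was -0.08 over the members and -0.01 over all genes, and 61 of the 75 lay below 0. In 30 members (40%) every siMENA11a library lay below every control library, and in 1 (1.33%) above; over all genes these shares were 20.2% and 16.6%.

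The decreases were led by MRPL12, the mobile stalk protein (bacterial L7/L12) that engages the translation factors. MRPL12 had 28.7, 27.7 and 24.6 FPKM in siMENA11a libraries, 50.6, 45.7 and 46.03 FPKM in siMENA libraries and 38.3, 46.4 and 40.3 FPKM in control libraries. All 3 siMENA11a libraries lay below all others, a mean of 64.8% of control (log2 fold change -0.61 ± 0.08, adjusted p = 0.00123). MRPL11, the protein of the stalk's base, had 32.2, 30.04 and 35.4 FPKM in siMENA11a libraries, 50.4, 42.6 and 43.7 FPKM in siMENA libraries and 41.9, 38.8 and 40.5 FPKM in control libraries, with siMENA11a again below both other groups (log2 fold change -0.30 ± 0.08, adjusted p = 0.0229). MRPL10, which anchors MRPL12, had 21.6, 20.9 and 15.6 FPKM in siMENA11a libraries, 24.6, 23.03 and 24.9 FPKM in siMENA libraries and 19.3, 21.7 and 23.9 FPKM in control libraries. Its siMENA11a library 3 lay below the rest while libraries 1 and 2 lay within the control range (log2 fold change -0.16 ± 0.12, adjusted p = 0.364).

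MRPL15, the counterpart of bacterial L15, had 18.1, 15.1 and 15.9 FPKM in siMENA11a libraries, 26.4, 27.6 and 27.8 FPKM in siMENA libraries and 22.6, 25.96 and 25.2 FPKM in control libraries. MRPL37, a large-subunit protein without a bacterial counterpart, had 53.05, 49.2 and 44.3 FPKM in siMENA11a libraries, 79.5, 79.4 and 75.4 FPKM in siMENA libraries and 68.3, 75.7 and 70.9 FPKM in control libraries. In both genes every siMENA11a library lay below every library of the other groups (log2 fold change -0.56 ± 0.08, adjusted p = 0.00117 for MRPL15; log2 fold change -0.54 ± 0.07, adjusted p = 0.000887 for MRPL37). MRPL21, counterpart of bacterial L21, had 42.97, 42.4 and 41.7 FPKM in siMENA11a libraries, 66.9, 61.8 and 62.8 FPKM in siMENA libraries and 51.7, 57.02 and 53.8 FPKM in control libraries, so that its 3 groups did not overlap and control lay between (log2 fold change -0.35 ± 0.05, adjusted p = 0.00231). The other large-subunit genes called lower were MRPL48 of the central protuberance (log2 fold change -0.35), MRPL36 (-0.32), MRPL28 (-0.29), MRPL51 (-0.28) and MRPL20 (-0.21).

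In the small subunit, MRPS10, counterpart of S10 in the head of the subunit, had 16.6, 13.2 and 17.6 FPKM in siMENA11a libraries, 24.7, 22.1 and 22.7 FPKM in siMENA libraries and 21, 23.99 and 23.8 FPKM in control libraries. Its siMENA11a libraries lay below the others, with library 2 the lowest (log2 fold change -0.51 ± 0.10, adjusted p = 0.0068). MRPS34, which has no bacterial counterpart and is mutated in combined oxidative phosphorylation deficiency, had 72.03, 75.9 and 81.6 FPKM in siMENA11a libraries, 88.8, 90.6 and 82.7 FPKM in siMENA libraries and 105, 103 and 96.9 FPKM in control libraries. Its 3 groups did not overlap (log2 fold change -0.41 ± 0.06, adjusted p = 0.00223). MRPS15, counterpart of S15, had 99.5, 90.2 and 98.3 FPKM in siMENA11a libraries, 126, 117 and 126 FPKM in siMENA libraries and 123, 114 and 123 FPKM in control libraries, again without overlap of siMENA11a with the rest (log2 fold change -0.32 ± 0.06, adjusted p = 0.00556). MRPS5, a counterpart of S5 near the path of the messenger RNA (log2 fold change -0.28), and MRPS24, counterpart of S3 at the mRNA entry (-0.22), were also called lower.

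**Figure D3:**
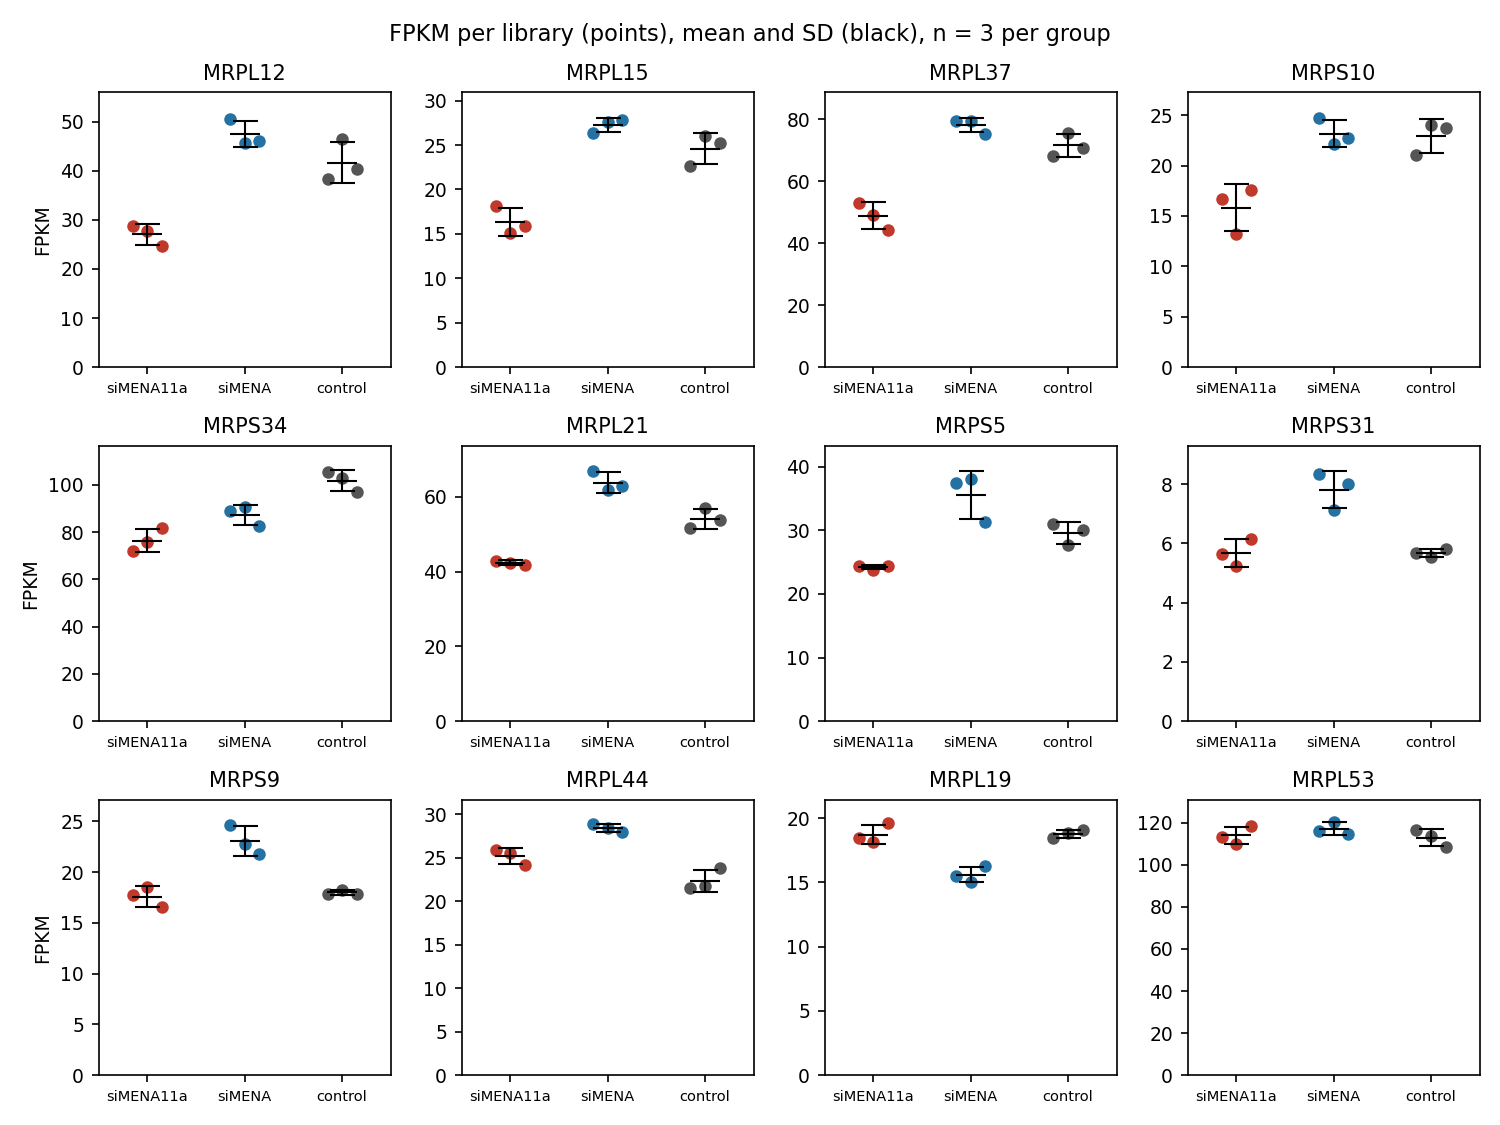
FPKM in each library (points) with the mean and SD of the 3 libraries of a group (black), for 12 genes, siMENA11a, siMENA and control from left to right. MRPL12, MRPL15, MRPL37 and MRPS10 are lower in siMENA11a than in both other groups, MRPS31, MRPS9 and MRPL44 are highest in siMENA, MRPL19 is lowest in siMENA, and MRPL53 (115 FPKM on average) differs little.

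Of the 15 calls, 8 held under all alternatives that could be fitted: MRPL12, MRPL15, MRPL37, MRPL21, MRPL28, MRPS10, MRPS34 and MRPS15. The count was 9 without control replicate 1 and 8 without control replicate 3. Over all genes tested, the share called lower also fell in these fits, from 11.3% to 8.45% and 6.78%. MRPL48 was lost without control replicate 3 only (adjusted p = 0.0536, with 0.0127 to 0.0536 over its alternatives). The other 6 (MRPL11, MRPL20, MRPL36, MRPL51, MRPS5 and MRPS24) each lost their call without control replicate 1, without control replicate 3 and when siMENA11a replicate 1 was left out, and their adjusted p then reached at most 0.0649 (MRPL36) to 0.110 (MRPL20). Among the 15 genes, values with a restored decimal point numbered 9 of 9 for MRPL51, 8 for MRPS24, 5 each for MRPS15 and MRPL36, and 4 for MRPS34.

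Comparing siMENA with control asks how the same genes respond to the pool against hMENA(t). With siMENA, 16 of the 75 genes (21.3%) were called higher than control and 2 (2.67%) lower, whereas 10.3% of all genes tested were called higher and 8.24% lower. The median log2 fold change was 0.13 over the members and 0.04 over all genes, and 59 of the 75 lay above 0. In 32 members (42.7%) every siMENA library lay above every control library, and in 11 (14.7%) below, against 23.8% and 16.3% over all genes. This split depended on the scaling. After median-ratio scaling 11 members were called higher and 5 lower, against 7.91% and 10.1% of all genes; after quantile normalization, 15 and 5, against 8.85% and 9.57%.

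MRPS31, a protein of the small subunit's head with no bacterial counterpart, had 5.64, 5.23 and 6.15 FPKM in siMENA11a libraries, 8.33, 7.12 and 8.001 FPKM in siMENA libraries and 5.68, 5.54 and 5.81 FPKM in control libraries. The siMENA libraries lay above all others while the siMENA11a and control libraries overlapped (log2 fold change 0.40 ± 0.08, adjusted p = 0.00697). GENCODE release 29 lists 4 pseudogenes of MRPS31, and how the authors' counting split reads among such copies is unknown. MRPS9, counterpart of S9, had 17.7, 18.5 and 16.5 FPKM in siMENA11a libraries, 24.7, 22.8 and 21.8 FPKM in siMENA libraries and 17.9, 18.2 and 17.8 FPKM in control libraries, again with siMENA above the other groups, which overlapped (log2 fold change 0.34 ± 0.06, adjusted p = 0.00554). MRPL44, a protein with an RNase III-like fold, had 25.9, 25.5 and 24.2 FPKM in siMENA11a libraries, 28.9, 28.5 and 28.03 FPKM in siMENA libraries and 21.5, 21.8 and 23.9 FPKM in control libraries. Its siMENA libraries were the highest and its siMENA11a libraries all lay above control (log2 fold change 0.34 ± 0.05, adjusted p = 0.00325); against control, the siMENA11a value was log2 fold change 0.17 ± 0.05, adjusted p = 0.059. MRPL32, which the m-AAA protease must cleave before it joins the ribosome, had 61.5, 66.6 and 65.5 FPKM in siMENA11a libraries, 82.2, 73.6 and 74.7 FPKM in siMENA libraries and 63.7, 61.2 and 62.3 FPKM in control libraries, with siMENA above the other groups, which overlapped (log2 fold change 0.29 ± 0.06, adjusted p = 0.0071).

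The further genes of the 12 largest differences were MRPS2 and MRPL39 (log2 fold change 0.29 each), MRPL24 (0.28), MRPL13 (0.27), MRPL49 (0.26), MRPS5 (0.25) and MRPL16 (0.24) higher, and MRPL19 lower. MRPL39 resembles a threonyl-tRNA synthetase, and MRPL24 sits at the exit of the polypeptide tunnel. The other calls, MRPL21, MRPS7, MRPS25, MRPS30 and MRPS35 higher and MRPS34 lower, lay within 0.25 of control. MRPL19, counterpart of L19, had 18.4, 18.1 and 19.6 FPKM in siMENA11a libraries, 15.5, 15.1 and 16.2 FPKM in siMENA libraries and 18.4, 18.8 and 19.1 FPKM in control libraries. Its siMENA libraries lay below both other groups (log2 fold change -0.25 ± 0.05, adjusted p = 0.0105). The siMENA libraries of MRPL9 (log2 fold change -0.20, adjusted p = 0.0642) and MRPL33 (log2 fold change -0.19, adjusted p = 0.132) did so too, but these genes were not called.

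Of the 18 calls, 8 held under all alternatives that could be fitted: MRPS31, MRPS9, MRPL44, MRPL32, MRPL39, MRPL24, MRPL49 and MRPL19. The number called higher was 10 without control replicate 1 and 7 without control replicate 3. It was 7 when siMENA replicate 1 was left out and 9 when siMENA replicate 2 was. Over all genes tested, the share called higher fell from 10.3% to 5.74%, 5.59%, 4.9% and 5.88% in these fits. The loss of calls was therefore not particular to the members. The other 10 calls were each lost without control replicate 3 and when siMENA replicate 1 was left out, with a highest adjusted p of 0.0652 (MRPL21) to 0.152 (MRPS7).

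Both comparisons share the 3 control libraries. Of the members, 3 were called in both: MRPL21 and MRPS5, higher with siMENA and lower with siMENA11a, and MRPS34, lower with both. MRPS5 had 24.3, 23.8 and 24.4 FPKM in siMENA11a libraries, 37.4, 37.98 and 31.2 FPKM in siMENA libraries and 30.97, 27.6 and 30.1 FPKM in control libraries, a pattern in which siMENA lay above and siMENA11a below every control library. MRPL48, which was called lower with siMENA11a alone, had 9.67, 11.7 and 12.03 FPKM in siMENA11a libraries, 12.4, 12.4 and 11.4 FPKM in siMENA libraries and 14.6, 13.99 and 14.6 FPKM in control libraries, and its siMENA libraries also lay below control (log2 fold change -0.23 ± 0.08, adjusted p = 0.0683).

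Comparing siMENA11a with siMENA sets the exon 11a mix directly against the hMENA(t) pool. Here 40 of the 75 genes (53.3%) were called lower in siMENA11a and 2 (2.67%) higher, against 22.2% lower and 14.4% higher over all genes tested. The median log2 fold change was -0.22 over the members and -0.05 over all genes, and 66 of the 75 lay below 0. In 46 members (61.3%) every siMENA11a library lay below every siMENA library, and in 3 (4%) above, against 28.6% and 19.2% over all genes. After median-ratio scaling 28 members were called lower and 3 higher, while 17.4% of all genes were called in each direction. Among the 8162 tested genes with a mean in the members' range of 6.39 to 194 FPKM, 26.0% were called lower and 16.9% higher with siMENA11a against siMENA, 13.9% and 9.78% with siMENA11a against control, and 10.4% lower and 12.6% higher with siMENA against control.

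**Figure D4:**
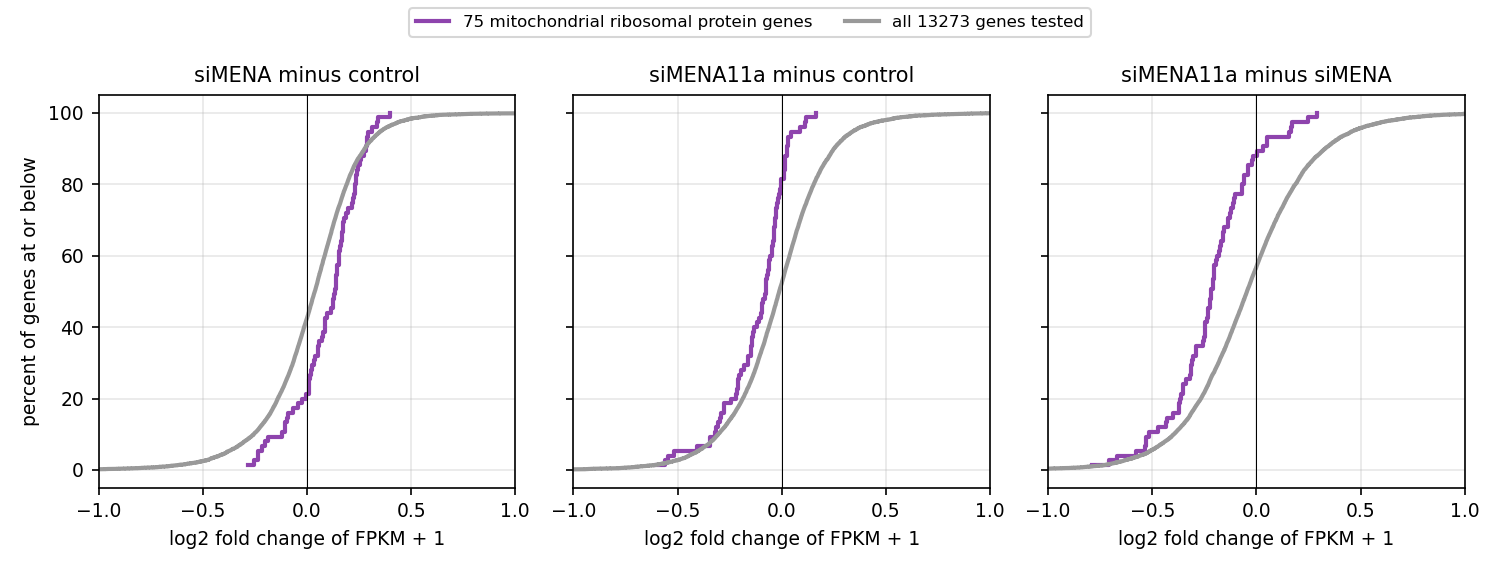
Cumulative share of genes (percent at or below a value) by log2 fold change of FPKM + 1, for the 75 mitochondrial ribosomal protein genes (purple) and all 13273 genes tested (grey), in the 3 comparisons. The purple line lies right of the grey line over most of its range for siMENA against control (medians 0.13 and 0.04) and left of it for siMENA11a against siMENA (medians -0.22 and -0.05).

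The 12 largest differences between siMENA11a and siMENA were decreases, and all 12 stayed called under every alternative that could be fitted. They were MRPL12 (log2 fold change -0.79 ± 0.08, adjusted p = 9.46e-05), MRPL15 (log2 fold change -0.71), MRPL37 (-0.67), MRPL21 (-0.58), MRPS2 (-0.53), MRPS5 (-0.53), MRPS10 (-0.53), MRPL4 (-0.51), MRPL11 (-0.47), MRPS7 (-0.43), MRPL47 (-0.43) and MRPS31 (-0.40). For all of these except MRPL4, MRPL47 and MRPS31, every siMENA11a library also lay below every control library. MRPS31 had means of 5.67 FPKM in siMENA11a and 5.68 FPKM in control libraries. The 2 genes higher in siMENA11a were MRPL19 (0.25) and MRPS6, a counterpart of S6 (log2 fold change 0.29 ± 0.09, adjusted p = 0.0309). MRPS6 had 32.9, 32.9 and 25.3 FPKM in siMENA11a libraries, 24.2, 25.4 and 23.7 FPKM in siMENA libraries and 28.6, 30.8 and 30.3 FPKM in control libraries, and its siMENA11a library 3 lay within the siMENA range. Of the 42 calls, 27 held under all alternatives that could be fitted. Of the other 15, 14 were lost without siMENA replicate 1, MRPS6 among them, and MRPL38 was lost without siMENA replicate 3, without siMENA11a replicate 3 and after quantile normalization; their highest adjusted p ran from 0.0595 (MRPL20) to 0.172 (MRPL40).

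Some members varied between siMENA11a libraries more than others. MRPS2, counterpart of S2, had 24.8, 24.7 and 19.3 FPKM in siMENA11a libraries, 33.8, 34.2 and 32.4 FPKM in siMENA libraries and 27.02, 27.6 and 26.9 FPKM in control libraries, with siMENA11a library 3 the lowest. MRPL4, whose bacterial counterpart lines the polypeptide tunnel, had 22, 25.3 and 17.4 FPKM in siMENA11a libraries, 31.2, 30.6 and 30.8 FPKM in siMENA libraries and 22.6, 25.8 and 25.9 FPKM in control libraries, and MRPL22, which also lines it, had 7.51, 7.32 and 5.53 FPKM in siMENA11a libraries, 9.14, 8.44 and 8.28 FPKM in siMENA libraries and 8.07, 8.81 and 8.54 FPKM in control libraries. In both genes siMENA11a library 3 was again the lowest. MRPL10 and MRPL4 had the largest residual SD of the members, 0.169 and 0.163 on the log2 scale.

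By place in the ribosome, calls were spread over both subunits. The shares over all genes tested, 11.3% lower with siMENA11a against control, 22.2% lower with siMENA11a against siMENA and 10.3% higher with siMENA against control, apply to all these counts; most classes hold too few genes to be read against them. Of the 47 MRPL genes, 10 were called lower with siMENA11a against control and 25 lower against siMENA; of the 28 MRPS genes, 5 and 15. Of the 44 genes with a bacterial counterpart, 11 were lower with siMENA11a against control and 25 against siMENA; of the 31 without one, 4 and 15. In the stalk, 2 of 3 genes (MRPL11 and MRPL12) were lower in both comparisons. In the central protuberance, 1 of 6 (MRPL48) was lower against control and 4 of 6 (MRPL18, MRPL27, MRPL38 and MRPL40) against siMENA. At the tunnel exit none of 6 was called with siMENA11a against control by limma, 3 being lower at an unadjusted p under 0.05, and 3 of 6 (MRPL22, MRPL24 and MRPL47) were lower against siMENA. Of 12 genes known from combined oxidative phosphorylation deficiency, 2 (MRPL12 and MRPS34) were lower with siMENA11a against control, 8 were lower against siMENA, and 4 (MRPL44, MRPS2, MRPS7 and MRPS25) were higher with siMENA against control. The differences between these classes were not tested.

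Proteins of the same ribosome that carry other symbols were measured as well. Of 8 such genes, 3 were called lower with siMENA11a against control and 5 against siMENA, and 1 was higher with siMENA against control, beside 11.3%, 22.2% and 10.3% of all genes tested. ICT1, a peptidyl-tRNA hydrolase built into the large subunit, had 19.9, 19.1 and 20.5 FPKM in siMENA11a libraries, 27.6, 25.5 and 26.5 FPKM in siMENA libraries and 26.02, 26.2 and 29.03 FPKM in control libraries (log2 fold change -0.43 ± 0.06, adjusted p = 0.0013 with siMENA11a against control). GADD45GIP1 and AURKAIP1 followed (log2 fold change -0.34 each). DAP3, a GTP-binding protein of the small subunit, had 42.8, 42.7 and 46.2 FPKM in siMENA11a libraries, 61.2, 53.7 and 51.6 FPKM in siMENA libraries and 43.5, 46.4 and 45.9 FPKM in control libraries and was the gene called higher with siMENA (log2 fold change 0.28 ± 0.07, adjusted p = 0.0179).

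The wider machinery of mitochondrial gene expression was counted from lists. Over all genes tested, 11.3% were lower and 8.16% higher with siMENA11a against control, 10.3% higher and 8.24% lower with siMENA against control, and 22.2% lower and 14.4% higher with siMENA11a against siMENA. Of 26 genes for ribosome assembly and rRNA modification, 3 were lower and 1 higher with siMENA11a against control, 6 higher and 1 lower with siMENA against control, and 10 lower and 3 higher with siMENA11a against siMENA. With siMENA11a against control, the 11.5% lower in this list and the 12.5% lower among the translation factors are close to the share over all genes. Among the assembly genes, MTG1, a GTPase of large-subunit assembly, had 21.02, 21.1 and 22.2 FPKM in siMENA11a libraries, 32.01, 28.8 and 29.5 FPKM in siMENA libraries and 26.3, 25.6 and 24.7 FPKM in control libraries, and its 3 groups did not overlap. NGRN, a protein that binds the large mitochondrial ribosomal RNA, had 73.03, 77.3 and 77.2 FPKM in siMENA11a libraries, 49.7, 50.7 and 46.7 FPKM in siMENA libraries and 68.1, 69.99 and 64.7 FPKM in control libraries and was lower with siMENA (log2 fold change -0.45 ± 0.05, adjusted p = 0.000557). Of 16 translation factors, 2 were lower with siMENA11a against control, 1 was higher with siMENA, and 6 were lower and 1 higher between siMENA11a and siMENA; SLIRP, a partner of LRPPRC in mitochondrial mRNA stability, had 188, 167 and 171 FPKM in siMENA11a libraries, 270.1, 276 and 269 FPKM in siMENA libraries and 183, 230.2 and 195 FPKM in control libraries, with siMENA above all other libraries (log2 fold change 0.43 ± 0.08, adjusted p = 0.00778). Of 16 mitochondrial aminoacyl-tRNA synthetases, 3 were lower with siMENA11a against control, 5 higher and 1 lower with siMENA, and 10 lower with siMENA11a against siMENA; NARS2 had the largest difference with siMENA (log2 fold change 0.49 ± 0.07, adjusted p = 0.00161).

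Beside the shares over all genes just given, 3 of 13 genes of mitochondrial DNA upkeep and transcription were lower with siMENA11a against control, 3 higher with siMENA, and 7 lower between siMENA11a and siMENA. SSBP1, the mitochondrial single-stranded DNA-binding protein, had 83.96, 70.6 and 86.1 FPKM in siMENA11a libraries, 148, 143 and 137 FPKM in siMENA libraries and 121, 133 and 134 FPKM in control libraries, with siMENA11a below all other libraries (log2 fold change -0.69 ± 0.08, adjusted p = 0.000576). Among 8 regulators of mitochondrial biogenesis, MYC was higher with siMENA (log2 fold change 0.59 ± 0.07, adjusted p = 0.000522), having 25.5, 28.1 and 23.4 FPKM in siMENA11a libraries, 36.6, 37.2 and 36.7 FPKM in siMENA libraries and 22.8, 24.04 and 25.5 FPKM in control libraries; siMENA11a and control libraries overlapped. ESRRA, an orphan nuclear receptor, was higher with both siMENA11a (log2 fold change 0.25) and siMENA (0.22). GABPA, the DNA-binding subunit of GABP, was lower in siMENA11a than in siMENA (-0.28) and in neither case called against control. The part of these regulators in the levels of the members was not tested.

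Beyond mitochondrial translation, 77 nuclear genes of the respiratory chain and ATP synthase and 77 cytosolic ribosomal protein genes were counted, lists added after the members' values had been seen. Of the respiratory genes, 19 were lower and 1 higher with siMENA11a against control, 8 higher and 3 lower with siMENA, and 46 lower and 2 higher with siMENA11a against siMENA. Of the cytosolic genes, 4 were lower and 2 higher, 5 higher and 2 lower, and 11 lower and 3 higher in the same comparisons. Of all genes tested, 11.3% were lower and 8.16% higher, 10.3% higher and 8.24% lower, and 22.2% lower and 14.4% higher. As shares with siMENA11a against siMENA, 59.7% of the respiratory and 14.3% of the cytosolic genes were lower, beside 22.2% of all genes tested. Their median log2 fold changes in that comparison were -0.27 and -0.07, beside -0.22 for the members, and the differences between lists were not tested. Genes encoded by mitochondrial DNA, the templates of the mitochondrial ribosome, were not analysed here.

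**Figure D5:**
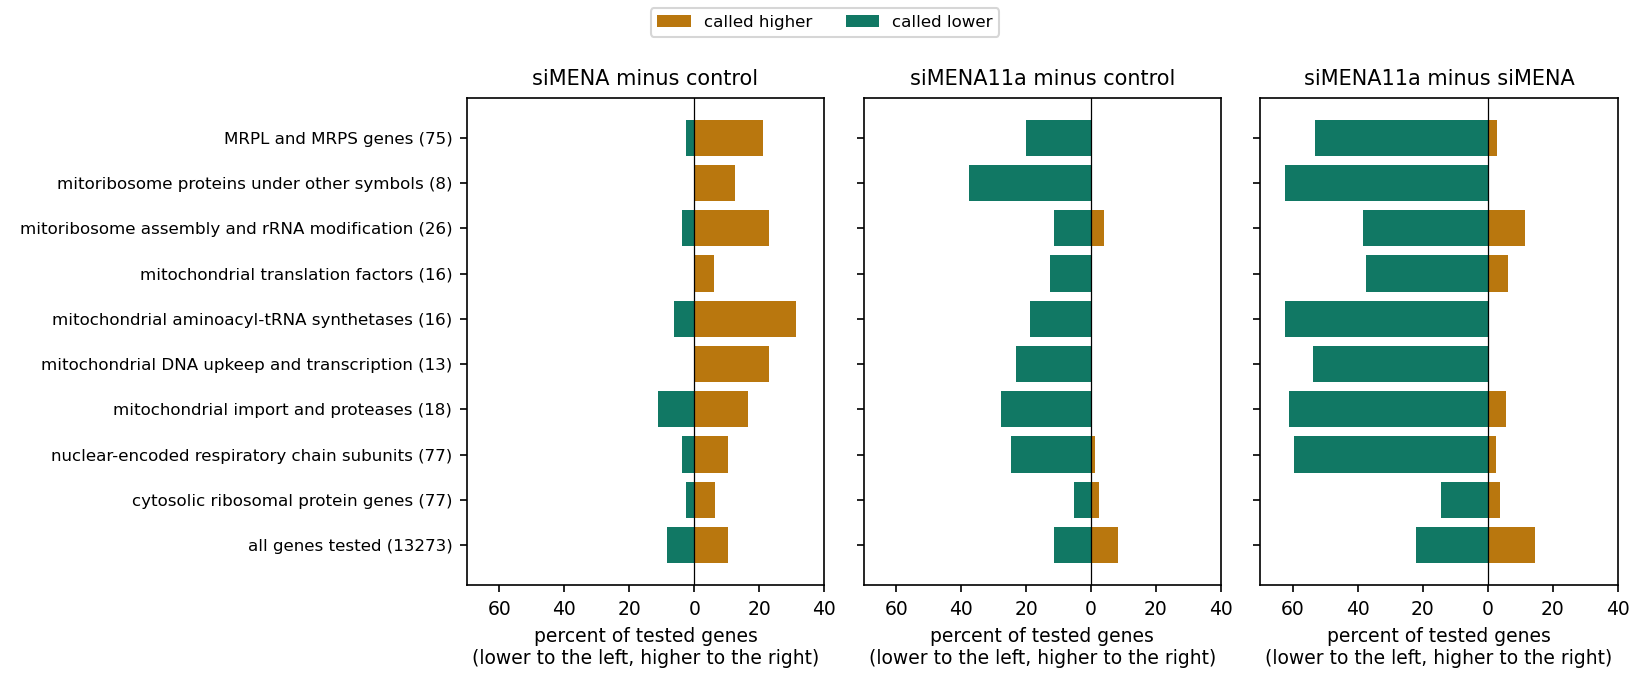
Percent of tested genes called lower (left of 0) and higher (right of 0) in each list, by comparison, with the number of tested genes in parentheses. Between siMENA11a and siMENA, 53.3% of the MRPL and MRPS genes were called lower, against 22.2% of all genes tested.

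Copies and neighbours limit single values. GENCODE release 29 lists 68 pseudogenes for 32 of the 75 genes, and an exon of another gene overlaps 13 of them on the same strand and 24 on the opposite strand. MRPL12 overlaps AC139530.2 on its own strand, MRPL37 overlaps SSBP3 and MRPL19 overlaps GCFC2 on the opposite strand, MRPS10 has 2 pseudogenes and MRPL15 has 1. MRPS6 overlaps SLC5A3 and AP000317.2 on its own strand and has 2 pseudogenes. The libraries were stranded, but whether the counting used the strand is not given in the sources used here.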

How the data were processed

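Total RNA of 9 libraries, 3 per group, was depleted of ribosomal RNA and read as stranded pairs of 75 bases, per the labels' protocols; the labels also gave the groups. The authors deposited FPKM values for 16630 genes. The submitters' processing notes name build hg19. Which aligner, quantifier and annotation were used is not given in the sources used here.

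In the deposited FPKM table, 11524 whole numbers (7.91% of the values) had lost their decimal point and were divided by 1000, which touched 43 of the 75 members; 1 decimal comma was read as a decimal point. Genes lacking a value in any library (1286) were dropped. The table holds no counts, so depth and counting error are unknown. The 13273 genes averaging 0.5 FPKM or more were compared as log2(FPKM + 1), which understates changes of low genes, with limma 3.58.1 in R 4.3.3: 1 fit over 9 libraries, group as the only term, a mean-variance trend and 6 residual degrees of freedom. Benjamini-Hochberg adjustment ran over all tested genes within a comparison, and "called" means adjusted p under 0.05. The fit was tested on simulated data. Errors of fold changes are standard errors. Values fall into 3 comparisons, siMENA11a against control, siMENA against control and siMENA11a against siMENA.

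Named members are the 5 highest and 5 lowest by level, the 12 largest called differences per comparison, and others by their place in the ribosome; from other lists, up to 4 called genes with the largest differences. The members and lists were chosen with earlier results of these data known. Promoters are from RefSeq (GRCh38.p14), and gene overlaps and 3′ UTRs from GENCODE release 29; both are on another build than the table, so members were matched by symbol.

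Replicate numbers are shared between groups. Residuals of same-numbered libraries correlated at 0.124, 0.378 and 0.196 between siMENA and control, which counts as pairing by the rule that each exceed 0.1; at 0.206, 0.425 and -0.0302 between siMENA11a and control; and at 0.0863, 0.309 and 0.0203 between siMENA11a and siMENA. Libraries of unlike number correlated at -0.242 to 0.113, -0.425 to 0.321 and -0.24 to 0.205 in the same comparisons. Passing 0.1 therefore does not by itself show that the numbers mark pairs. Alternatives tried were a pseudocount of 0.1, no filter, a filter of 2 FPKM, a replicate block, median-ratio scaling, quantile normalization, repaired genes left out, only the 2 groups compared, and each library left out in turn.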

Additional observations from a re-analysis of the deposited data

How the results depend on the processing

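All 75 calls of members kept their direction under every alternative that could be fitted, and no result reversed. With each library left out in turn, the members called higher with siMENA against control numbered 7 to 19 and those called lower 1 to 4. Over all genes these shares ran from 4.9% to 12.3% and from 5.24% to 9.61%. With siMENA11a against control, 0 to 1 members were higher and 8 to 16 lower, beside 4.47% to 7.84% and 6.78% to 10.9% of all genes. With siMENA11a against siMENA, 1 to 3 were higher and 27 to 41 lower, beside 10.9% to 14.3% and 16.4% to 22.3%. The members' median log2 fold changes then ran from 0.10 to 0.15, from -0.11 to -0.06 and from -0.24 to -0.19 in the same comparisons. The 1 member called higher with siMENA11a against control without control replicate 3 was MRPL44, as it was after median-ratio scaling (1) and quantile normalization (1). Leaving out genes with a repaired value left 32 members, of which 9 were higher and 0 lower with siMENA against control by limma. At an unadjusted p under 0.05, 3 were lower. With siMENA11a against control 5 were lower. With siMENA11a against siMENA 18 were lower and 0 higher (1 higher at an unadjusted p under 0.05). Of the 8461 genes fitted, 8.63% were higher and 6.65% lower, 8.95% lower, and 19.4% lower and 12.7% higher in these comparisons. Fewer members were fitted. With siMENA against control, 5 members were lower after median-ratio scaling, 5 after quantile normalization and 4 with only the 2 groups compared. Of all genes, 10.1%, 9.57% and 8.7% were lower in these fits. The cause was not tested. The median with siMENA11a against siMENA was -0.17 after median-ratio scaling; all genes are recentred there. With the replicate block, a paired fit, 17 members were higher and 3 lower with siMENA against control. The counts were 0 and 17 with siMENA11a against control, and 2 and 42 with siMENA11a against siMENA. Calls rose over all genes too, to 13.1% higher and 10.6% lower, 11.2% and 14.7%, and 17% and 25.6% in the same comparisons. The block ended the call of MRPL40 alone (adjusted p = 0.0520, with 0.0166 to 0.172 over its alternatives). Other alternatives (pseudocount of 0.1, no filter, filter of 2 FPKM) left every count within 1.5 times its value.

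With 3 libraries of 1 cell line per group, 1 siRNA preparation per target and no counts, the depth behind each value is unknown; the smallest member difference called was that of MRPL44 with siMENA11a against siMENA (log2 fold change -0.17).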

Other observations

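Genes of mitochondrial import, folding and proteolysis were counted as well. Of 18, 5 were called lower with siMENA11a against control, 3 higher and 2 lower with siMENA against control, and 11 lower and 1 higher with siMENA11a against siMENA. Over all genes tested the shares were 11.3% lower, 10.3% higher and 8.24% lower, and 22.2% lower and 14.4% higher. The 2 partners of the matrix chaperonin differed in direction: HSPD1 had 219.5, 235 and 221 FPKM in siMENA11a libraries, 182, 187 and 169 FPKM in siMENA libraries and 219, 238 and 233 FPKM in control libraries, so that siMENA lay below both other groups (log2 fold change -0.36 ± 0.06, adjusted p = 0.00398), whereas HSPE1 had 175, 159 and 165 FPKM in siMENA11a libraries, 243, 229.8 and 222 FPKM in siMENA libraries and 193, 202 and 199 FPKM in control libraries and was highest in siMENA (log2 fold change 0.23 ± 0.06, adjusted p = 0.0252). LONP1, a matrix protease, had 15.6, 15.9 and 15.7 FPKM in siMENA11a libraries, 15.7, 16.05 and 16.1 FPKM in siMENA libraries and 20.2, 19.3 and 18.6 FPKM in control libraries and was lower than control with both siMENA11a (log2 fold change -0.28 ± 0.05, adjusted p = 0.00452) and siMENA (log2 fold change -0.27 ± 0.05, adjusted p = 0.00655). TOMM40, the import channel of the outer membrane, had 51.02, 60.3 and 51.7 FPKM in siMENA11a libraries, 79.6, 78.4 and 75.5 FPKM in siMENA libraries and 60.8, 70.6 and 61.5 FPKM in control libraries and was higher with siMENA (log2 fold change 0.27 ± 0.08, adjusted p = 0.0357).

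A few words of 7 letters were looked up in the 3′ UTRs of the members (GENCODE release 29). The words had been chosen earlier from these same comparisons over all genes, and 3′ UTR length was not matched. The sequences of the siRNAs were not known here, so no word can be tied to one of them. CCAAGGA or CAAGGAA, both present in exon 11a of ENAH (63 bases), stood in 7 of the 75 members (9.33%) and in 26.0% of 11357 tested genes; of the 15 members lower with siMENA11a against control, 2 (MRPL15 and MRPL21) held one, and of the 60 not called, 5 did. CAGAATA or AGAATAA, for which no link to the siMENA pool is known, stood in 13 members (17.3%) and in 28.5% of the tested genes. Of the 2 members lower with siMENA against control, 1 (MRPL19) held one, as did 2 of the 16 that were higher (MRPL13 and MRPS25). Pairing with a siRNA was not tested.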
